A study of Mus musculus with 21 samples.

Results

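Forkhead (Fox) genes encode transcription factors that bind DNA through a winged-helix domain. The 9 described here, Foxf1, Foxf2, Foxc1, Foxc2, Foxd1, Foxd2, Foxl1, Foxl2 and Foxs1, were chosen by symbol, and all 9 were found among the 24594 genes of each of the 2 count tables. Another 36 forkhead genes were listed in the same tables. RNA was measured in 2 series of mouse libraries, each on a mixed C57Bl/6J;CD1 background, with embryos of both sexes pooled and 3 biological replicates per group. For the genotype series, PA2 and PA3, which are pharyngeal arches 2 and 3, were dissected from embryos at E10.5 (E for embryonic day). The embryos were wild type (WT) or HIRE1del/del, in which a distal enhancer region of the Hoxa cluster was deleted on both alleles by genome editing. No cell sorting is stated for these 12 libraries. In the stage series, Wnt1::Cre;ROSARFP embryos carried a red reporter switched on in premigratory crest progenitors by the Wnt1 promoter. Reporter-positive cells were collected by FACS from E10.5 PA2 and, at E12.5 and E14.5, from the forming pinna, the outer ear to which PA2 gives rise. Tissue was digested with papain at E14.5 and with trypsin at the earlier stages. All 9 libraries of the stage series carried no deletion.

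Cranial neural crest cells migrate into the arches and form mesenchyme, which builds cartilage, bone and connective tissue of the face, neck and ear. Forkhead factors are classical mesenchymal regulators. In the facial primordia several of them act downstream of Hedgehog signalling and take part in outgrowth, palate formation and skeletal patterning. Pairs such as Foxf1 and Foxf2 or Foxc1 and Foxc2 are paralogues with overlapping functions.

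Expression is given as CPM, counts per 1 M counts of a library after scaling by TMM, a trimmed mean that corrects for composition, and changes are log2 ratios. A genotype library held 25.8 to 32.21 M counts and a stage library 25.81 to 49.06 M. A count of 3 in 1 library, taken as the floor, was 0.0931 to 0.116 CPM and 0.0612 to 0.116 CPM in the 2 series, and intervals on counts cover counting error only. A gene was tested if it had at least 1 CPM in at least 2 libraries of its table and was called where the edgeR quasi-likelihood test gave a Benjamini-Hochberg adjusted p under 0.05. Of the members, 8 passed that filter in each table, and Foxs1 did not in either. Markers of crest mesenchyme, such as Twist1 and Prrx1, were all detected in every group. The sorted libraries had summed levels of 7.03 to 9.74 CPM for endothelial and 9.17 to 11.4 CPM for epithelial markers at E10.5, against 273 to 359 and 170 to 524 CPM in the dissected arches. The endothelial marker Cldn5 and the cartilage marker Matn1 were listed at 0 in all 7 groups.

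The genes lie at 6 loci (GRCm38, GENCODE M21). Foxf1 (chromosome 8, 121084386 to 121088144), Foxc2 (121116171 to 121118895) and Foxl1 (121127940 to 121130644) form a cluster on the plus strand, 28.03 and 9.04 kb apart. Foxf2 (chromosome 13, 31625816 to 31631403) and Foxc1 (31806633 to 31812476) share a second plus-strand cluster and lie 175.23 kb apart. Foxd1 (chromosome 13, 98354242 to 98359305, plus strand), Foxd2 (chromosome 4, 114906282 to 114908873, minus strand), Foxl2 (chromosome 9, 98955288 to 98958543, plus strand) and Foxs1 (chromosome 2, 152931898 to 152933208, minus strand) lie apart from the other members. Foxf1 and Foxf2 have 2 exons and the other genes 1. The noncoding transcripts Fendrr, Foxd2os and Foxl2os start on the opposite strand close to Foxf1, Foxd2 and Foxl2, with 1276 and 384 bases between the first 2 pairs of genes. Foxl2os shares 12 exon bases with Foxl2, and because the library kit does not mark strand, reads there cannot be told apart.

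Promoter windows of 250 bases before to 50 bases after the start were found for 5 of the members in RefSeq (GRCm38.p6). The 3 below belong to Foxf2 (chr13:31625566-31625865, plus strand) and Foxc1 (chr13:31806396-31806695, plus strand), which fell over the stages, and Foxl2 (chr9:98955357-98955656, plus strand), which rose. The RefSeq start of Foxl2 (98955607) lies inside its GENCODE gene, which starts at 98955288 and has 1 exon. By that annotation the whole Foxl2 window is exon, so its motifs and CpG sites are not those of upstream sequence. Capitals mark GC boxes (GGGCGG) and CCAAT boxes (CCAAT) on either strand.
Foxf2: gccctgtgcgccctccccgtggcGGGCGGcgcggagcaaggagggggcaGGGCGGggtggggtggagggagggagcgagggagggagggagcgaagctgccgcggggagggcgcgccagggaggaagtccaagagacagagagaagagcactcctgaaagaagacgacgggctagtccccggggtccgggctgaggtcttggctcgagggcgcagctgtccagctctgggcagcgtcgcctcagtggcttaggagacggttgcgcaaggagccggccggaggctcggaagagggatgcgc
Foxc1: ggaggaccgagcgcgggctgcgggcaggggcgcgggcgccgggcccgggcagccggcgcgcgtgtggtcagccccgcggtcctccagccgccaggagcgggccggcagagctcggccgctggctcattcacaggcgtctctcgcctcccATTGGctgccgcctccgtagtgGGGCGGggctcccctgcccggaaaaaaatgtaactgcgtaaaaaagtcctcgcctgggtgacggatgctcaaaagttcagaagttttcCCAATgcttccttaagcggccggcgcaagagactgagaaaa
Foxl2: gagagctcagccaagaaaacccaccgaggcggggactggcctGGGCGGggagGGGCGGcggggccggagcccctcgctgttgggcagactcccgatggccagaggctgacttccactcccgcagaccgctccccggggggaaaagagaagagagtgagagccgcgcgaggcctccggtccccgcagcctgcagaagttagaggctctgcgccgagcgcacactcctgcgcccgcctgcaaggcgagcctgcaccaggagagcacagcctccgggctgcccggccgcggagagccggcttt
A GC box was matched in all 3 windows, in 2 places in Foxf2, 1 in Foxc1 and 2 in Foxl2, and in 35.7% of all 32851 windows of the table. CCAAT was matched in 2 places in Foxc1 and in neither other window, against 37.4% of all windows. The TATA box (TATAAA), the forkhead motif (TGTTTAC) and the GLI motif of Hedgehog effectors (GACCACCCA) were found on neither strand of the 3, against 13.6%, 3.65% and 0.253% of all windows. The windows of Foxf2, Foxc1 and Foxl2 held 27, 32 and 27 CpG sites, with a median of 7 over all windows.

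The first question was how the forkhead genes differ between PA2 crest cells at E10.5 and crest cells of the developing pinna. In sorted PA2 cells, 7 of the 9 genes had at least 7.53 CPM in every library, and Foxl2 and Foxs1 were near or below the floor. Per kb of exon, Foxc1 led with 22.4 ± 0.324 CPM per kb (SD, n = 3). It was followed by Foxc2 at 16 ± 1.88, Foxf1 at 14.2 ± 1.03 and Foxd2 at 13.4 ± 0.43 CPM per kb, 3 levels of which neighbours in the order overlapped in their SDs. Foxf2 at 7.75 ± 0.352, Foxd1 at 6.02 ± 0.776 and Foxl1 at 3.18 ± 0.344 CPM per kb were lower in that order. At E14.5, Foxl2 was first at 2.02 ± 0.616 CPM per kb. Foxc1 at 0.179 ± 0.0278, Foxs1 at 0.177 ± 0.0965 and Foxd2 at 0.137 ± 0.115 CPM per kb came next and overlapped in their SDs.

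**Figure D1:**
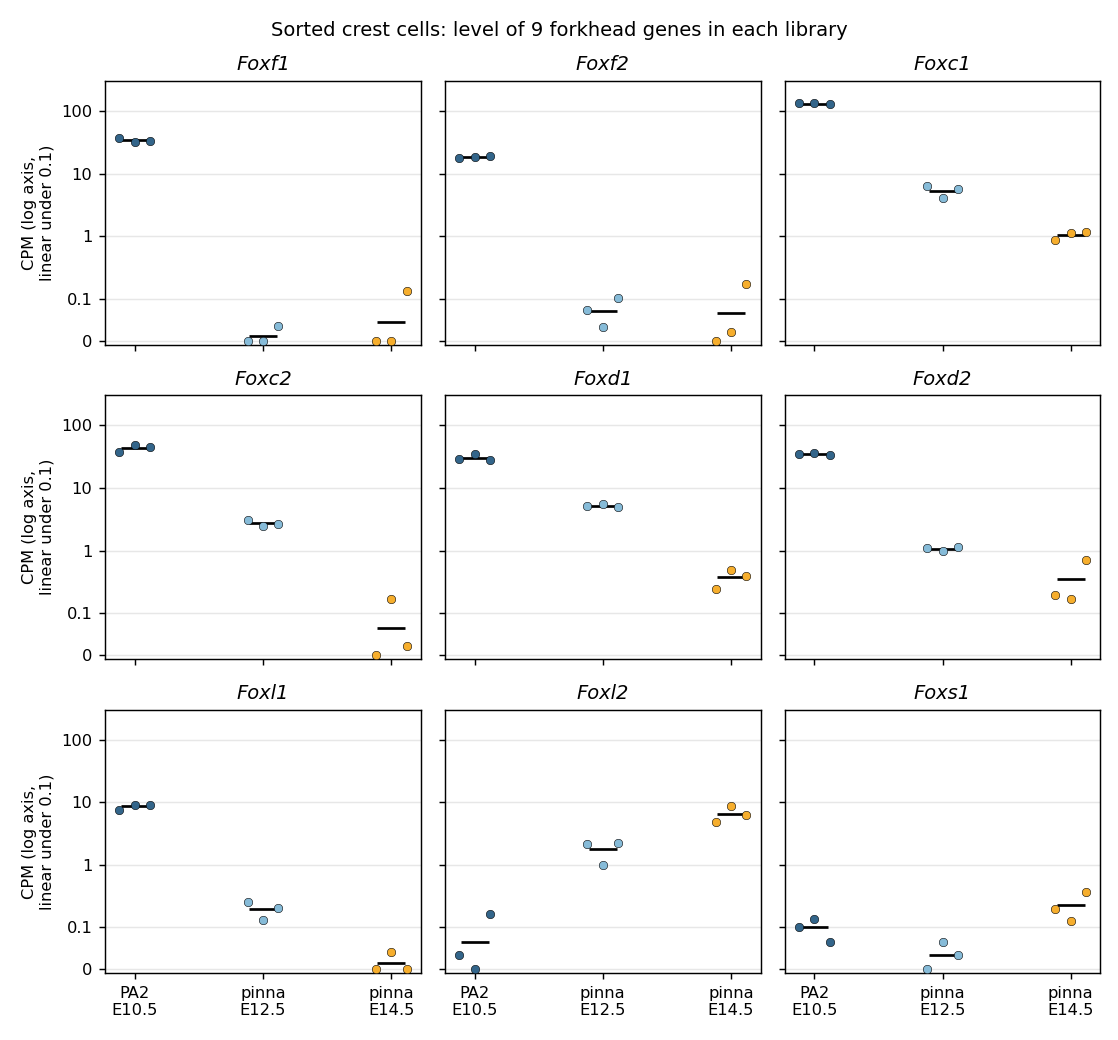
Level of each forkhead gene in CPM (log axis, linear under 0.1) in the 9 libraries of sorted crest cells; points are libraries in the order of replicates 1 to 3 and bars are group means (n = 3). In 7 panels the PA2 libraries lie above all pinna libraries, while Foxl2 goes the other way, from a mean of 0.0656 CPM in PA2 to 6.59 CPM in the E14.5 pinna.

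The FoxF genes, mesenchymal factors known from lung, gut and palate, were expressed in PA2 and nearly absent from the pinna. Foxf1 had 37.1, 32.4 and 33.5 CPM in PA2 (1110, 943 and 1026 counts). In the pinna it had 0, 0 and 1 count at E12.5 and 0, 0 and 6 counts at E14.5. The 3079 counts of PA2 against 1 count at E12.5 correspond to a 2990-fold difference with a 95% counting interval of 536 to 118000. The single count was in replicate 3 of E12.5, and the fitted change of -11.2 was -13.3 without that library. Foxf2 had 17.5, 18.2 and 19.2 CPM in PA2, then 2, 1 and 3 counts at E12.5 and 0, 1 and 8 counts at E14.5. Its ratio of PA2 to E12.5 was 266 (122 to 725). Groups did not overlap for either gene, and both were called lower at E12.5 by edgeR with Benjamini-Hochberg adjustment (adjusted p 7.43e-09 for Foxf1 and 5.64e-08 for Foxf2). Both passed the filter only through the PA2 libraries, so a difference from PA2 was fixed and these calls support nothing further. Between E12.5 and E14.5 neither was called, with adjusted p of 0.364 and 0.945, at counts that leave no room for a further fall to be seen.

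The FoxC genes, which act in skeletal, eye, heart and vessel development, fell in 2 steps. Foxc1 had 132, 132 and 129 CPM in PA2, 6.31, 4.02 and 5.64 CPM at E12.5 and 0.859, 1.11 and 1.16 CPM at E14.5. The changes were -4.63 (SE 0.132) from PA2 to E12.5 and -2.34 (SE 0.173) from E12.5 to E14.5, with edgeR adjusted p of 5.95e-10 and 5.79e-07. Foxc2 had 37.8, 47.7 and 45.3 CPM in PA2 and 3.08, 2.45 and 2.69 CPM at E12.5, a change of -3.99 (SE 0.214, edgeR adjusted p 4.26e-08). At E14.5, only 0, 8 and 1 counts of Foxc2 were left, so that it went below its E12.5 level by 42-fold (21.7 to 92.9), and replicate 2 held 8 of these counts. The fitted change between the pinna stages was -5.32 with this library and -7.54 without it. Foxc2 thus had a smaller drop than Foxc1 at the first step and a larger one at the second, although the difference between the genes was not tested.

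The FoxD genes, known from face and kidney stroma, also fell at both steps. Foxd1 had 28.7, 35.0 and 27.8 CPM in PA2, 5.05, 5.52 and 4.96 CPM at E12.5 and 0.242, 0.484 and 0.394 CPM at E14.5. Its first change of -2.56 (SE 0.144, edgeR adjusted p 5.88e-08) was the smallest fall among the tested members, and the second was -3.78 (SE 0.2, edgeR adjusted p 4.57e-08). Per kb, Foxd1 was the highest member in the E12.5 pinna, at 1.02 ± 0.059 CPM per kb and within the spread of Foxc2 at 1.0 ± 0.118 and Foxc1 at 0.911 ± 0.202 CPM per kb. Foxd2 had 35.1, 35.8 and 33.6 CPM in PA2, 1.08, 0.98 and 1.16 CPM at E12.5 and 0.198, 0.168 and 0.701 CPM at E14.5. It lost most of its level by E12.5 (-5.02, SE 0.269, edgeR adjusted p 4.3e-08), and the later change was -1.59 (SE 0.389, edgeR adjusted p 0.00395). Replicate 3 of E14.5, with 32 counts of Foxd2 against 9 and 8, stood above the others, and without it the later change was -2.52.

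Foxl1, known from the mesenchyme under the gut epithelium, was the lowest of the 7 genes on in PA2. It had 7.53, 9.13 and 9.15 CPM there, 7, 4 and 6 counts at E12.5 and 0, 2 and 0 counts at E14.5. The ratio of PA2 to E12.5 was 44 (27.3 to 75.9), and edgeR called it lower with an adjusted p of 1.46e-07. Both E14.5 counts were in replicate 2, and the change from E12.5 to E14.5 was -3.47 (edgeR adjusted p 0.00145) with it and -5.74 without it. Foxf1, Foxf2 and Foxl1 reached 1 CPM in the stage series only in PA2, so having passed the filter they had to differ.

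Foxl2, best known as the factor of ovarian granulosa cells and the eyelid, was the only tested member to rise. It had 1, 0 and 5 counts in PA2, 2.19, 1.01 and 2.21 CPM at E12.5 and 4.78, 8.75 and 6.24 CPM at E14.5. No library of a later stage overlapped with those of an earlier one. The E12.5 level was 26.6-fold that of PA2 (12 to 73.7) and the E14.5 level 98.9-fold (45.3 to 270), with edgeR adjusted p of 5.73e-05 and 7.73e-07. Since it reached 1 CPM only in the pinna libraries, having passed the filter it had to differ from PA2. Replicate 3 of PA2 held 5 of the 6 counts there, and without it the fitted changes went from 4.68 to 6.46 for E12.5 and from 6.55 to 8.33 for E14.5. Between E12.5 and E14.5 the change was 1.87 (SE 0.373, edgeR adjusted p 0.00102). Foxs1, a factor known from pericytes and sensory neurons, stayed at 0 to 17 counts per library, with 3, 4 and 2 counts in PA2, 0, 2 and 1 at E12.5 and 9, 6 and 17 at E14.5. Its E14.5 level was 6.69-fold that of E12.5 (2.09 to 34.2), a counting interval that leaves out the spread between replicates.

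Counted together, 7 of the 8 tested members were lower and 1 higher at E12.5 than in PA2, in a comparison in which 68.8% of 13438 genes were called, 35% of them higher and 33.7% lower as shares of all genes. For Foxf1, Foxf2, Foxl1 and Foxl2 a difference was fixed by the filter, so these counts support nothing for them. Foxc1, Foxc2, Foxd1 and Foxd2 reached 1 CPM, on total counts before scaling, in every library of PA2 and of the E12.5 pinna, and all 4 were called lower. The ranges of the 2 groups were apart for all 8, as for 74.5% of all genes. From E12.5 to E14.5, 5 were lower and 1 higher, with 65.7% of all genes called (32.6% higher, 33.1% lower). From PA2 to E14.5, 7 were lower and 1 higher, with 82% of all genes called (42% higher, 40% lower). Here too the difference from PA2 was fixed by the filter for Foxf1, Foxf2, Foxl1 and Foxl2. In bulk RNA, fewer cells of a type and less RNA per cell cannot be told apart, and the pinna prominence is not the whole of PA2.

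Markers of cell types also differed between the stages. The 8 crest mesenchyme markers summed to 1802 to 2079 CPM in PA2, 3454 to 3710 at E12.5 and 3663 to 4027 at E14.5, a sum in which Pdgfra was the highest at each stage. Taken one by one, Twist1, Prrx1, Pdgfra and Msx1 were above all PA2 libraries at E12.5, Tfap2a, Dlx2 and Hand2 were below them, and Prrx2 overlapped. Hand2 had means of 129.7, 1.55 and 2.68 CPM and Dlx2 of 78.9, 25.6 and 4.65 CPM at the 3 stages. Between PA2 and E14.5, all 4 melanocyte markers were above the PA2 libraries, with sums of 5.92 to 7.93, 31.4 to 44.2 and 335 to 384 CPM at the 3 stages. Of the 7 mural cell markers (619 to 685, 701 to 878 and 1344 to 1612 CPM), 5 were above and Rgs5 and Notch3 below. Of the 5 glial markers (20.5 to 23.4, 21.6 to 25.6 and 84.3 to 99.8 CPM), 4 were above. Endothelial markers summed to 7.03 to 9.74, 19.3 to 27.9 and 110 to 173 CPM, with Kdr and Cdh5 above and the other 5 not apart from PA2. Kdr made up most of the later sums, with means of 3.26, 17.97 and 140.9 CPM at the 3 stages. At E14.5 the next highest was Pecam1 with a mean of 2.43 CPM. Of the 6 epithelial markers (9.17 to 11.4, 7.84 to 9.65 and 24.8 to 42.6 CPM), Cdh1, Krt5 and Krt14 were above and Epcam and Krt18 below. Of the 5 chondrocyte markers (1660 to 1703, 666 to 709 and 336 to 371 CPM), Sox9, Col2a1 and Col9a1 were below and Acan above, and of the 6 neuronal markers (36.8 to 43.3, 30.1 to 35.9 and 10.97 to 17.5 CPM), 3 were below and 2 above. Blood and muscle markers summed to at most 7 and 3.04 CPM in any sorted library. The part of these cell types in the results was not tested.

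The divergent noncoding transcripts changed in the same direction as their neighbours. Fendrr, a transcript known from embryonic mesoderm, had 2.9 ± 0.355 CPM in PA2 (SD, n = 3) and a single count in 1 of the 3 libraries at each later stage. Foxd2os had 22.8 ± 2.33, 0.64 ± 0.3 and 0.095 ± 0.0922 CPM at the 3 stages, and both were called lower at E12.5 (edgeR adjusted p 6.23e-07 for Fendrr and 8.14e-08 for Foxd2os). Neither would have passed the filter without the PA2 libraries, nor Foxl2os without those of the pinna, so that a difference from PA2 was fixed for them. Foxl2os rose from 0.166 ± 0.0964 to 6.8 ± 1.25 and 54.4 ± 4.5 CPM, changes of 5.31 and 3.0 by edgeR with adjusted p of 2.93e-08 and 1.95e-08. At E14.5 Foxl2os stood at more CPM than Foxl2 itself in every library, with 51.0 to 59.5 against 4.78 to 8.75 CPM, and the exon lengths counted (3315 and 3256 bases) were similar.

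Mthfsd, between Foxf1 and Foxc2, had 57.1 ± 4.19, 61.6 ± 3.25 and 59.7 ± 3.54 CPM at the 3 stages and a first change of 0.11 (95% interval -0.05 to 0.27). Gmds, 7.1 kb from Foxc1, changed by -0.72 (SE 0.138, edgeR adjusted p 0.000712) and Exoc2 by -0.22 (SE 0.0664, edgeR adjusted p 0.0112) at E12.5. Foxq1, 64.84 kb from Foxf2, had 1.08 to 1.2 CPM in PA2, no count in the E12.5 pinna (at least 10.9-fold lower, with a floor of 3 counts per library) and 0.4 to 0.942 CPM at E14.5. Foxe3, 16.27 kb from Foxd2, had 0.48 to 0.569 CPM in PA2 and no count in the 6 pinna libraries.

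**Figure D2:**
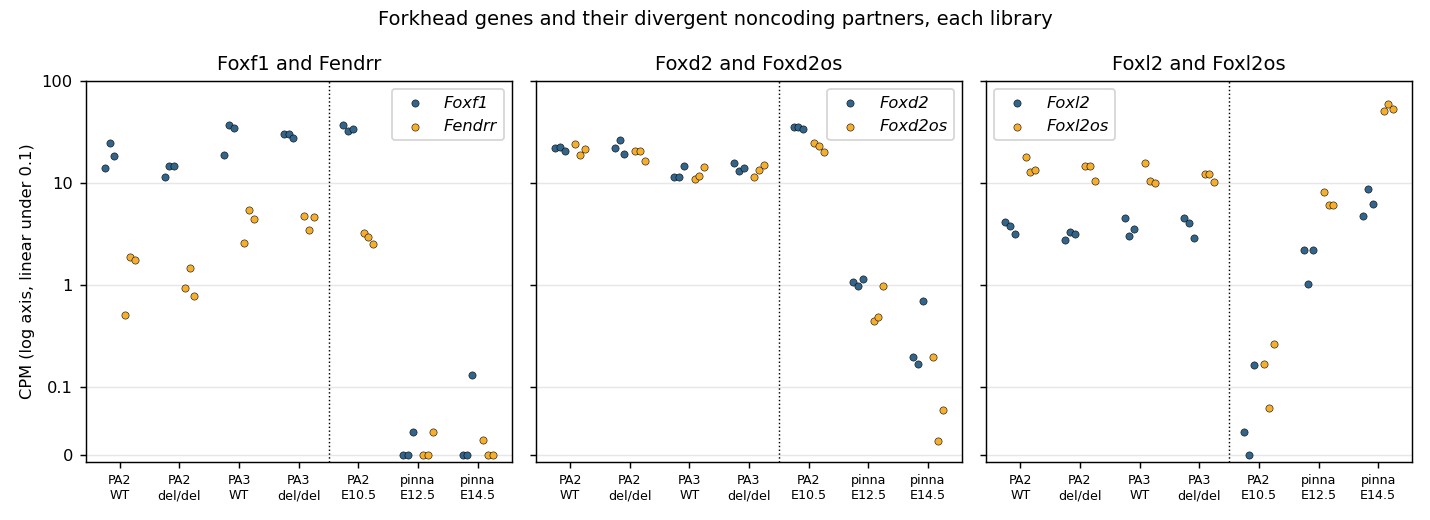
Level in CPM (log axis, linear under 0.1) of 3 forkhead genes and their divergent noncoding partners in every library; the dotted line parts the E10.5 arches from the sorted cells, which were sequenced and scaled separately. Foxd2 and Foxd2os overlap in all 4 arch groups, and Foxl2os lies above Foxl2 in all groups but sorted PA2, where both are at or below 0.261 CPM.

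Of the 36 other forkhead genes, 16 were tested in the stage series, and 8 were called higher and 5 lower at E12.5 than in PA2. The largest rises were those of Foxj2 (1.195) and Foxn3 (1.125), and the largest falls those of Foxq1, which passed the filter only through PA2, and Foxm1 (-1.03), a proliferation factor. From E12.5 to E14.5, 7 were higher, led by Foxq1 and Foxo6 (2.15), and 8 lower, led by Foxp4 (-1.06) and Foxj1 (-0.78), which passed the filter only through E12.5. From PA2 to E14.5, 8 were higher, led by Foxo6 (2.6) and Foxj2 (1.53), and 5 lower, led by Foxm1 (-1.77) and Foxp4 (-1.21). Over all genes, 68.8% were called at E12.5 against PA2 (35% higher, 33.7% lower). The shares were 65.7% from E12.5 to E14.5 (32.6% higher, 33.1% lower) and 82% from PA2 to E14.5 (42% higher, 40% lower). These shares also apply to the Hedgehog pathway, in which 11 of 12 genes were tested, with 3 higher and 5 lower at E12.5. Gli1, a transcriptional effector and readout of the pathway, had 80.7 ± 4.0 CPM in PA2 and 2.9 ± 0.273 CPM at E12.5 (SD, n = 3; change -4.80, edgeR adjusted p 1.35e-09), and Ptch1, the receptor, changed by -2.22 (edgeR adjusted p 1.17e-09). Hhip, a ligand-binding inhibitor, was not called (0.12, edgeR adjusted p 0.632). Gli1 then rose to 25.5 ± 5.05 CPM at E14.5 (change 3.14, edgeR adjusted p 2.51e-08). From E12.5 to E14.5, 4 genes of the pathway were higher and 2 lower, and from PA2 to E14.5, 2 were higher and 5 lower. The part of the pathway in the levels of the forkhead members was not tested.

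The second question was whether the forkhead genes differ in arches that lack HIRE1. The authors report that both Hoxa2 and Hoxa3 depend on HIRE1, and that in PA3 the loss of Hoxa3 was the larger. Hoxa2 had 73.4 to 84.2 CPM in PA2 WT and 4.75 to 7.1 CPM in PA2 HIRE1del/del, and 56.0 to 65.1 against 22.1 to 25.6 CPM in PA3. No forkhead member was called in PA2, where 0.438% of 14383 genes were called, in PA3, where 0.216% were, or in the difference of the 2 effects, where 0.0487% were. The edgeR adjusted p of the 8 tested members ranged from 0.546 to 0.943 in PA2, from 0.24 to 0.993 in PA3 and from 0.897 to 0.978 in the difference. At an unadjusted p under 0.05, there was 1 member in PA2, 1 in PA3 and 0 in the difference, with 8.57%, 9.73% and 5.52% of all genes. DESeq2 called 1 member in PA3, where it called 0.654% of all genes, and 0 in PA2 and in the difference, and limma-voom called 0 in all 3.

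The member of PA2 was Foxd1. It had 13.4, 15.4 and 15.6 CPM in WT and 17.4, 24.3 and 27.3 CPM in HIRE1del/del. All HIRE1del/del libraries were above the WT libraries, as was seen in one or the other direction in 13.2% of all genes. The change was 0.64 (95% interval 0.04 to 1.24), with an unadjusted p of 0.0388 and an adjusted p of 0.546 by edgeR. Foxf1 in PA2 had 14.0, 24.6 and 18.4 CPM in WT and 11.5, 14.54 and 14.6 CPM in HIRE1del/del. These ranges overlapped, and the change was -0.48 (95% interval -0.99 to 0.02, edgeR adjusted p 0.612). Of the cell type markers in PA2, 4 of 8 for crest mesenchyme (Twist1, Prrx1, Tfap2a and Dlx2) lay above WT in HIRE1del/del. So did 3 of 5 for chondrocytes (Sox9, Col2a1 and Col9a1). Cspg4 of mural cells, Tcf21 of muscle, Isl1 of neurons and Erbb3 of glia lay below, and all others overlapped. Their part in the levels of Foxd1 and Foxf1 was not tested.

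The member of PA3 was Foxc1. It had 77.2, 87.4 and 94.3 CPM in WT and 62.2, 73.0 and 67.9 CPM in HIRE1del/del. The groups did not overlap, as in 14.3% of all genes, and the change was -0.35 (95% interval -0.54 to -0.16) with an edgeR adjusted p of 0.24. DESeq2 gave the same change with an adjusted p of 0.0344, in a range over all alternatives of 0.0344 to 0.448. In PA2, Foxc1 had 108, 91.5 and 96.2 CPM in WT and 79.7, 94.1 and 92.6 CPM in HIRE1del/del, groups that overlapped, with a change of -0.15 (95% interval -0.34 to 0.05). Of the cell type markers in PA3, Twist1 lay above WT in HIRE1del/del. Tfap2a, Cdh5, Isl1, Sox10 and Foxd3 lay below, and all others overlapped. Their part in the Foxc1 level was not tested.

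For the other members the intervals bound what could have been missed. Foxd2 changed by 0.06 in PA2 (-0.21 to 0.33) and 0.18 in PA3 (-0.11 to 0.46), the narrowest 95% intervals beside Foxc1. Foxf2 changed by -0.18 (-0.68 to 0.32) and 0.24 (-0.24 to 0.72), and Foxc2 by 0.3 (-0.23 to 0.83) and -0.07 (-0.61 to 0.48). Foxl2 changed by -0.26 (-0.7 to 0.19) and 0.05 (-0.39 to 0.48), and Foxl1, at 21 to 94 counts per library, by 0.17 (-0.7 to 1.05) and -0.02 (-0.85 to 0.81). A change of 2-fold, which is 1 on the log2 scale, was therefore outside the interval of every tested member in both arches except for a rise of Foxd1 or Foxl1 in PA2. Of the other forkhead genes 24 were tested, as were all 12 Hedgehog genes, and none was called in any of these 3 comparisons by edgeR, with 2, 5 and 4 of the forkhead and 0, 2 and 1 of the Hedgehog genes at an unadjusted p under 0.05 (background shares as above). Gli1, Ptch1 and Hhip changed by 0.04, -0.1 and 0.26 in PA2 and by -0.11, -0.06 and -0.1 in PA3.

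**Figure D3:**
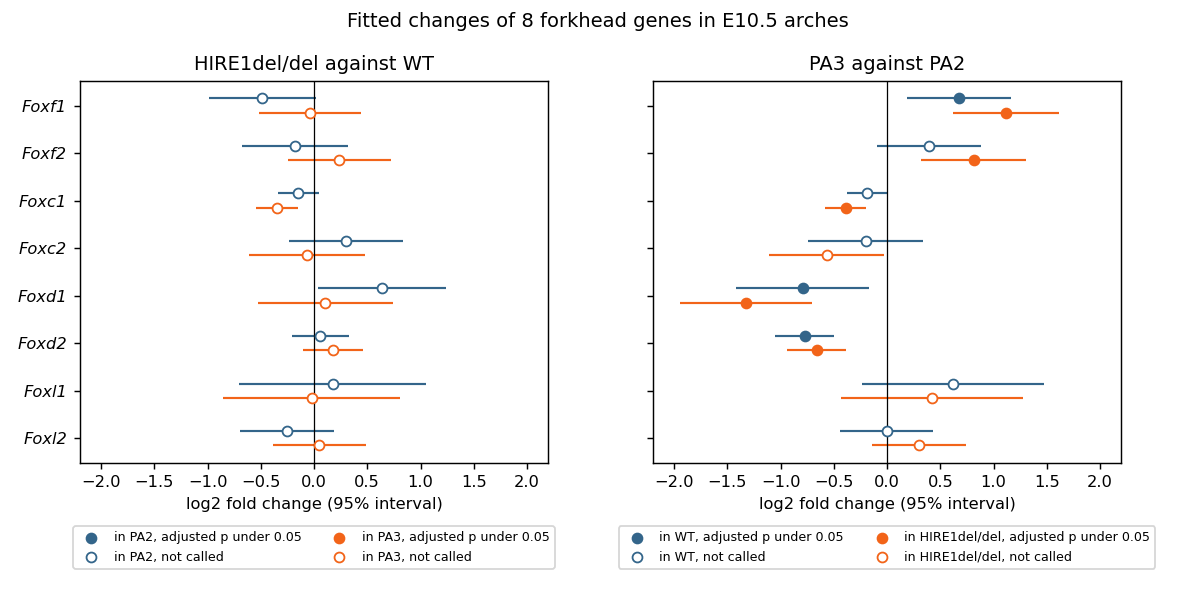
Log2 fold changes with 95% intervals (edgeR) of 8 forkhead genes in E10.5 arches, for HIRE1del/del against WT (left) and PA3 against PA2 (right); filled points have an adjusted p under 0.05. No point is filled on the left, where values run from -0.48 to 0.64, while on the right Foxf1, Foxd1 and Foxd2 are filled in both genotypes.

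The arches themselves differed. The counts that follow come from the fit of group means, which does not pair libraries. In WT, 3 of the 8 tested members were called between PA3 and PA2, 1 higher and 2 lower in PA3, at a background of 36.5% of genes called (19.1% higher, 17.4% lower). In HIRE1del/del, 5 were called, 2 higher and 3 lower, at a background of 33.4% (18.7% higher, 14.7% lower). The 2 contrasts use different libraries, and no member's arch difference was called as unequal between the genotypes (edgeR adjusted p 0.897 to 0.978, the same test as for the genotype effects).

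The FoxF genes were on the PA3 side. Foxf1 had 18.8, 37.3 and 34.6 CPM in PA3 WT against 14.0, 24.6 and 18.4 CPM in PA2 WT. The ranges overlapped through replicate 1 of PA3, and the change was 0.67 (SE 0.226, edgeR adjusted p 0.0323). The call was lost without PA2 WT replicate 1 (0.126), PA2 WT replicate 3 (0.0891), PA3 WT replicate 2 (0.137) or PA3 WT replicate 3 (0.108), and with the 2 groups fitted alone (0.0656), with edgeR adjusted p from 0.000302 to 0.137 over all alternatives. In HIRE1del/del it had 30.01, 30.6 and 27.8 CPM in PA3 against 11.5, 14.54 and 14.6 CPM in PA2, with no overlap and a change of 1.118 (SE 0.232, edgeR adjusted p 0.00244). Foxf2 had 8.07, 15.4 and 13.0 CPM in PA3 WT against 8.09, 11.5 and 8.25 CPM in PA2 WT, and 11.2, 15.4 and 16.5 against 6.73, 8.77 and 9.09 CPM in HIRE1del/del. The WT groups overlapped and the HIRE1del/del groups did not. The changes were 0.39 (SE 0.226, edgeR adjusted p 0.197) and 0.81 (SE 0.228, edgeR adjusted p 0.0148), and the second was lost without PA2 HIRE1del/del replicate 1 (0.0616) or PA3 HIRE1del/del replicate 3 (0.0506). Fendrr was higher in PA3 too, by 1.56 in WT and 2.02 in HIRE1del/del (edgeR adjusted p 0.00695 and 0.00202), with 4.15 ± 1.46 against 1.38 ± 0.766 CPM in WT (SD, n = 3 each).

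The FoxD genes were on the PA2 side. Foxd1 had 6.43, 10.3 and 8.82 CPM in PA3 WT, all below the 13.4, 15.4 and 15.6 CPM of PA2 WT. Its change was -0.79 (SE 0.289, edgeR adjusted p 0.0465). That call was lost without any 1 of PA2 WT replicates 1, 2 and 3 and PA3 WT replicates 1 and 3 (edgeR adjusted p 0.0657, 0.0994, 0.11, 0.154 and 0.0946), with total counts in place of TMM (0.0507) and with DESeq2 (0.0703), with a range of 0.00116 to 0.154 over all alternatives. In HIRE1del/del, 4.34, 11.4 and 11.8 CPM in PA3 lay below the 17.4, 24.3 and 27.3 CPM of PA2, a change of -1.33 (SE 0.287, edgeR adjusted p 0.00323). Foxd2 had 11.4, 11.5 and 14.8 CPM in PA3 WT against 21.8, 22.4 and 20.5 CPM in PA2 WT. In HIRE1del/del it had 15.8, 13.0 and 13.9 against 22.02, 26.2 and 19.3 CPM. The groups were apart in both genotypes, as were those of 49.9% of genes in WT and 45% in HIRE1del/del, and Foxd2 was lower in PA3 by -0.78 (SE 0.128, edgeR adjusted p 0.000482) and -0.66 (SE 0.128, edgeR adjusted p 0.00159). Foxd2 kept its call under every alternative in both genotypes. Foxd2os differed by -0.79 and -0.53 (edgeR adjusted p 0.00084 and 0.0114).

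**Figure D4:**
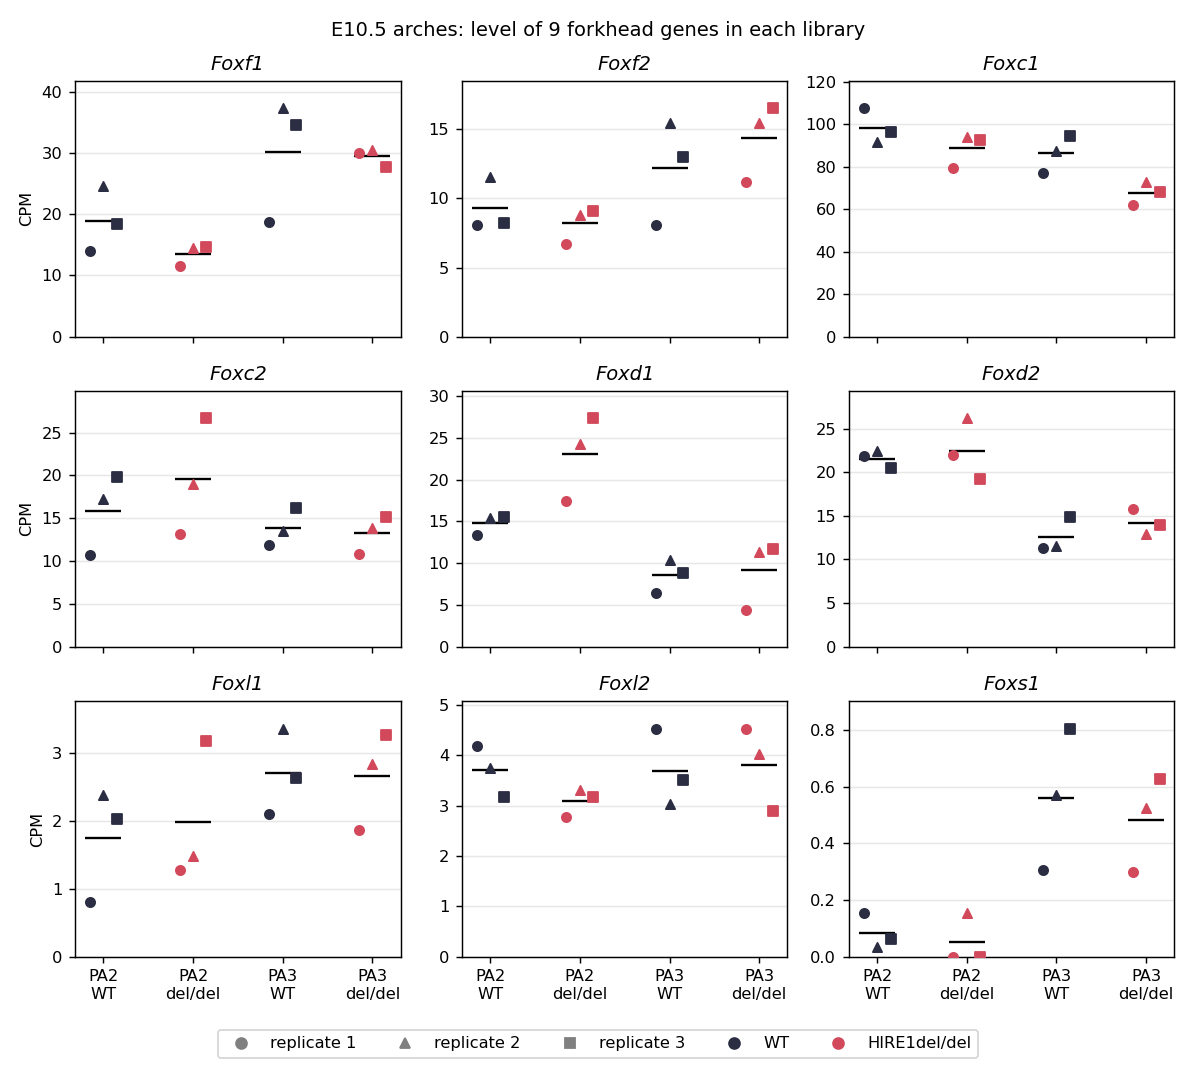
Level of each forkhead gene in CPM in the 12 libraries of the E10.5 arches; symbols mark the replicate number, colours the genotype and bars the group means (n = 3). Replicate 1 is the lowest library of each of the 4 groups for Foxf2, Foxc2, Foxd1 and Foxl1, and Foxs1 has 0.299 to 0.804 CPM in PA3 against at most 0.156 CPM in PA2.

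The FoxC genes were less separated. Foxc1 was lower in PA3 in HIRE1del/del (62.2, 73.0 and 67.9 against 79.7, 94.1 and 92.6 CPM, with no overlap), by -0.39 (SE 0.0904, edgeR adjusted p 0.00498), and in WT the change was -0.19 (SE 0.0896, edgeR adjusted p 0.119). Foxc2 had 11.9, 13.5 and 16.2 CPM in PA3 WT against 10.7, 17.3 and 19.8 CPM in PA2 WT, with a change of -0.2 (SE 0.25, edgeR adjusted p 0.566), and -0.57 (SE 0.25, edgeR adjusted p 0.0991) in HIRE1del/del. Foxl1 differed by 0.62 (SE 0.396) and 0.42 (SE 0.396), and Foxl2, with 3.04 to 4.52 CPM in PA3 WT and 3.17 to 4.18 CPM in PA2 WT, by 0.0 (95% interval -0.44 to 0.43) and 0.3 (-0.14 to 0.74), none of which was called.

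PA2 and PA3 libraries with the same number and genotype deviated together, and with the pair as a block the edgeR test called 5 members in WT and 6 in HIRE1del/del, at backgrounds of 42.4% and 39.1% of all genes. Foxf2 (0.37, adjusted p 0.0253) and Foxl1 (0.67, adjusted p 0.046) were added in WT and Foxc2 (-0.54, adjusted p 0.00394) in HIRE1del/del. No call of the fit without the block was lost with it, Foxf1 and Foxd1 in WT included. The losses without 1 library given above belong to the fit without the block. Leaving out 1 library also added Foxf2 in WT (without PA3 WT replicate 1, adjusted p 0.0336) and Foxc2 in HIRE1del/del (without PA2 HIRE1del/del replicate 1, 0.026). Over all alternatives, the edgeR, DESeq2 or limma-voom adjusted p of these 3 ran from 0.0253 to 0.586, 0.046 to 0.591 and 0.00394 to 0.415. For the genes in which replicate 1 was lowest in all 4 groups (Foxf2, Foxc2, Foxd1 and Foxl1), it averaged 0.558 to 0.71 of the mean of the other replicates. Among all tested genes, 2.28% had replicate 1 lowest in all 4 groups.

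Foxs1 was too low to be tested. It had 8, 16 and 25 counts in PA3 WT against 4, 1 and 2 in PA2 WT, and 8, 15 and 18 against 0, 4 and 0 in HIRE1del/del. In both genotypes all PA3 libraries were above all PA2 libraries, by 7.13-fold (95% counting interval 3.21 to 18.7) in WT and 9.67-fold (3.5 to 37.2) in HIRE1del/del. Without the filter on low counts, edgeR also called Foxs1 in both comparisons of the arches, which brought the members called to 4 in WT and 6 in HIRE1del/del, with 25.8% and 23.7% of 20938 genes called.

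Other cell types moved with the arch. Summed blood markers were 10520 to 21130 CPM in PA3 and 1313 to 2893 CPM in PA2 (5 of 5 detected in both). All 5 were above the PA2 libraries in both genotypes, as were all 6 neuronal markers (136 to 232 against 56.8 to 78.3 CPM). Of the epithelial markers (337 to 524 against 170 to 204 CPM), Epcam, Cdh1, Krt8 and Krt18 were above in both genotypes, whereas Krt14 was below in both and Krt5 in WT. Of the mural cell markers (487 to 601 against 347 to 418 CPM), 4 of 7 were above in WT and 5 in HIRE1del/del. Of the 5 glial markers (88.6 to 133 against 33.0 to 49.5 CPM), 3 were above in WT and 1 in HIRE1del/del, and 5 of the 7 endothelial markers (323 to 359 against 273 to 290 CPM) were above in both, with Kdr below in WT. Of the 5 chondrocyte markers (752 to 941 against 1078 to 1446 CPM), 3 were below in both genotypes. Of the 8 crest mesenchyme markers (762 to 1006 against 1082 to 1238 CPM), 4 were below in WT and 5 in HIRE1del/del, while Prrx2 was above in both and Msx1 in HIRE1del/del. Their part in the arch differences of the forkhead genes was not tested. Among the 24 other forkhead genes tested, 11 were higher and 4 lower in PA3 WT, where 19.1% of all genes were higher and 17.4% lower. Among them were Foxh1 (3.45) on the higher side and, on the lower, Foxe3 (-2.21, passing the filter only through PA2 HIRE1del/del) and Foxp1 (-0.41). In HIRE1del/del, 9 were higher and 5 lower, with 18.7% of all genes higher and 14.7% lower. Among them were Foxh1 (3.5) and, on the lower side, Foxe3 (-3.67) and Foxp4 (-0.46). Foxq1, the neighbour of Foxf2, was higher in PA3 by 2.11 and 1.74 (edgeR adjusted p 0.000116 and 0.000782). Of the 12 Hedgehog genes, 2 were higher and 3 lower in PA3 WT and 2 were higher and 5 lower in PA3 HIRE1del/del, beside the same shares of all genes. Ptch1 was higher by 0.32 and 0.35 (edgeR adjusted p 0.00182 and 0.000973), and Gli1 was not called in either genotype (0.14 and 0.0).

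Sorted PA2 cells and dissected PA2 WT were of one stage but were sequenced and scaled separately, so their levels are only set side by side. Most members had more CPM in the sorted cells, as Foxc2 with 43.6 ± 5.13 against 15.9 ± 4.71 CPM and Foxl1 with 8.6 ± 0.931 against 1.74 ± 0.825 CPM (SD, n = 3 each). Foxl2 was the other way round, with 1, 0 and 5 counts in sorted PA2 and 108, 107 and 103 counts in dissected PA2 WT, as was Foxl2os with 0.166 ± 0.0964 against 14.8 ± 2.89 CPM. Foxl2 had 74 to 121 counts in each of the 12 dissected libraries. The markers of other cell types that differ between these libraries are given above, and their part in the Foxl2 level was not tested.

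The pattern of each member over the 7 groups was then compared with the other genes among the 12871 tested in both series. The measure was the root mean square difference of log2 levels (0.5 CPM added). Each gene was centred on its own mean within each series, so a difference in level between sorted and dissected libraries does not enter it. The groups share libraries, stages and scaling, so the values are a description. Foxd2 was closest to Foxd2os (0.0743), followed by Cyp26a1 (0.298) and Lin28a (0.304). Foxf1 was closest to its paralogue Foxf2 (0.346), then Hand2 (0.362) and Hand2os1 (0.421). Foxf2 had Trim71 (0.288), Crym (0.306) and Hand2 (0.318) before Foxf1. Foxc1 and Foxc2 were 0.254 apart, which put Foxc2 first for Foxc1, before Asb4 (0.349) and Foxd2os (0.373), and Foxc1 after Fndc3c1 (0.214) for Foxc2. Foxd1 was closest to Lin28b (0.184), Barx1 (0.248) and Fndc3c1 (0.302), and Foxl1 to Adamts18 (0.139), Slc7a11 (0.151) and Crym (0.178). Foxl2 was closest to Plpp1 (0.0739), Pde7b (0.111) and Junb (0.111), and it stood 2.16 to 2.79 from every other tested member. Among the other 7 members the distances were 0.254 to 1.28, and the largest was that of Foxf1 and Foxd1. Paralogues were thus closer to each other than to other members in the FoxF and FoxC pairs, whereas Foxd2 was closer to Foxc1 (0.387) than to Foxd1 (0.63).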

How the data were processed

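The authors aligned RNA-seq reads (single-end in the stage series, paired-end in the genotype series) to GRCm38 with QuasR and deposited raw counts per gene over UCSC known-gene exons, counted in the orientation opposite to the gene from a kit described as not stranded. Here, genes reaching 1 CPM in 2 or more libraries entered the test (14383 genotype, 13438 stage), and 1 edgeR 4.0.16 quasi-likelihood model of group means with TMM was fitted per table in R 4.3.3, two-sided. Standard errors are the absolute change over the square root of F, and 95% intervals use the t quantile at the residual degrees of freedom of that test. Alternatives used DESeq2 1.42.0, limma-voom 3.58.1, other scalings and filters, blocks and omitted libraries. The scripts were tested on simulated data.

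The members and lists were chosen with earlier results of these data known. Named were all members, cluster neighbours and antisense transcripts, the 2 largest called rises and falls among other forkhead genes, Gli1, Ptch1 and Hhip of 12 Hedgehog genes, and the 3 most similar genes per member. Some genes that this rule takes are not reported here. That replicates came from separate embryo pools is stated, but not how numbers match across groups. Deviations from group means correlated between same-numbered PA2 and PA3 libraries of a genotype (r 0.475, 0.269 and 0.321 in WT, 0.266, 0.335 and 0.384 in HIRE1del/del). These libraries were therefore taken as pairs in the replicate block, while the main fit leaves the pairing out. The tables were never tested against each other.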

Additional observations from a re-analysis of the deposited data

How the results depend on the processing

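The calls of the stage series and the absence of calls in PA2 HIRE1del/del against WT and in the difference of the genotype effects were kept under all alternatives run, with 1 exception: with the pinna groups fitted alone, Foxf1, Foxf2 and Foxl1 did not reach the minimum of 1 CPM, and 5 members were called between E12.5 and E14.5, Foxl1 not among those tested. Without the filter, Foxs1 was tested too, and 7 members were called in that comparison. The number of members called was 1 with the DESeq2 test in PA3 HIRE1del/del against WT (Foxc1), where edgeR called none. In PA3 against PA2 in WT it was 3, but 5 with the replicate block of paired arches, 1 at an adjusted p under 0.01 and 1 to 3 when 1 library was left out. It was 1 without replicate 1 or 3 of PA2 WT and without replicate 3 of PA3 WT. The replicate block changed no call elsewhere, except that Foxc2 was added in HIRE1del/del.

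Some changes that were not called took the other sign. Foxf1 in PA3 HIRE1del/del against WT was 0.00802 with limma-voom and 0.0133 with the replicate block, and Foxl2 in PA3 against PA2 in WT was 0.00341 with total counts. The other changes of sign came with 1 library left out. The ranges that follow are over all alternatives. In PA2 HIRE1del/del against WT, Foxf2 ran from -0.269 to 0.00371, Foxd2 from -0.062 to 0.161 and Foxl1 from -0.35 to 0.453. In PA3 HIRE1del/del against WT, Foxf1 ran from -0.288 to 0.138, Foxc2 from -0.171 to 0.0609 and Foxd1 from -0.115 to 0.435. Foxl1 ran there from -0.198 to 0.173 and Foxl2 from -0.0944 to 0.217. In the difference of the genotype effects, Foxl1 ran from -0.327 to 0.475. In PA3 against PA2 in WT, Foxl2 ran from -0.172 to 0.117. From E12.5 to E14.5, Foxf1 ran from -2.03 to 3.74 and Foxf2 from -2.33 to 0.468. None of these values was called. For genes with a count under 10 per library, depth limits what can be seen.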
